A study of Homo sapiens with 24 samples.

Results

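PDE4B and its relatives PDE4A, PDE4C and PDE4D encode the phosphodiesterase 4 (PDE4) enzymes, and their RNA levels are described here over 24 microarrays of human embryonic stem cell lines. PDE4B was picked by its fall with AZD3965, which blocks lactate transport by MCT1, and the other 3 genes were taken as the rest of its family. A gene is measured on this array by 1 or more probe sets, and a member was any probe set annotated to exactly 1 of the 4 genes. There were 14 members among 54675 probe sets: 5 for PDE4A, 3 for PDE4B and 6 for PDE4D, so that 3 of the 4 genes were among the 19775 genes with a probe set of their own. All 4 probe sets that name PDE4C also name a second gene, CIST1, and no value is given for PDE4C.

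Cyclic AMP (cAMP) is a second messenger that adenylyl cyclases make from ATP when G proteins relay a signal from a receptor, and that activates protein kinase A. The PDE4 enzymes degrade cAMP, do not act on cyclic GMP, and lie at particular places in the cell through partner proteins. Each PDE4 gene has several promoters and gives long and short forms, and different probe sets of a gene can report different transcripts. Protein kinase A phosphorylates the transcription factor CREB, which binds the cAMP response element (CRE) in the promoters of its target genes, and some PDE4 transcripts are known to rise with cAMP as a feedback.

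The inhibitor part of the study has 12 arrays. The lines H1, H9 and HSF1 (here a cell line, not the gene of that name) were each grown feeder-supported, on mouse embryonic fibroblasts (MEFs), or feeder-free, and each culture received the solvent DMSO or 250 nM AZD3965 for 5 days, with 1 array for each combination. The medium part has another 12 arrays, all of feeder-free cells: H9 and HSF1 in unconditioned or MEF-conditioned medium, with 3 biological replicates per group. The labels give 5 days for the conditioned medium and the study's design text gives 24 hours, so its duration is uncertain. Values are deposited log2 levels, on which a difference of 1 is a doubling. A level is set only against levels of the same probe set, because probe sets differ in how strongly they hybridise.

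The arrays carried the markers of pluripotent cells. All 8 pluripotency markers with a probe set of their own were above a log2 level of 5 on every array, with a mean of 11.66 to 12.34 on the 6 feeder-supported arrays and 12.29 to 12.70 on the 18 others. A list of 16 fibroblast markers averaged 7.66 to 8.56 on feeder-supported arrays, 6.93 to 8.08 on feeder-free arrays of the inhibitor part and 6.89 to 7.15 in the medium part. A list of mesoderm and endoderm markers averaged 6.38 to 7.91 with feeders and 5.54 to 5.99 on the feeder-free arrays of the same part, and a neuroectoderm list 6.06 to 6.81 and 5.45 to 5.74. In bulk RNA, fewer cells of a type and less RNA per cell cannot be told apart. The 2 feeder-supported HSF1 arrays stood apart from the other 22, with an interquartile range of 2.45 against 2.66 to 3.30. The difference between 3′ and 5′ control probe sets of ACTB, a measure of RNA quality, was -0.31 and -0.15 on them, 0.44 to 1.19 on the other inhibitor arrays, 2.89 and 3.25 on 2 of the H9 unconditioned arrays and 1.07 to 1.84 on the remaining 10 medium arrays.

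The promoters of the family differ in sequence. RefSeq (GRCh38.p14) lists 23 promoter windows for the 4 genes, each of 250 bases before to 50 bases after a transcription start, with 5 for PDE4A, 6 for PDE4B, 4 for PDE4C and 8 for PDE4D. The full CRE, TGACGTCA, was searched on both strands, as was the shorter motif TGACG, which the full CRE contains. The full CRE was in 1 of the 23 windows, a PDE4A window, against 1.85% of 35116 windows of all genes. The shorter motif was in 3 of 23, against 24.6% of all windows, and none of the 6 PDE4B windows held either. A match is not a measured site of binding, and no match says only that these letters are not in the window. The stretches below are shown because the PDE4A window is the single one of the 23 with a full CRE, and PDE4B is the gene by which the family was chosen. The first holds the PDE4A CRE in capitals, at chr19:10416723-10416782 on the plus strand, with the motif starting 3 bases before the transcription start. Only the full CRE is in capitals. The shorter motif also occurs elsewhere in that stretch, on the other strand, and is left in lower case. The other pair are the 60 bases before the first listed PDE4B start, at chr1:65792450-65792509, and before the last, at chr1:66354475-66354534, both on the plus strand and with no capitals.
PDE4A start with the CRE: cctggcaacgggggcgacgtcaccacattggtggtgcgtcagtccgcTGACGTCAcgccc
PDE4B first start: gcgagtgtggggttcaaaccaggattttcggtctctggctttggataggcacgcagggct
PDE4B last start: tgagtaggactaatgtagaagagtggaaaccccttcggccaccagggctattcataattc
In the 250 bases before a start, G and C made up a median of 76.8% over the PDE4A windows, 41.4% over the PDE4B windows and 50.6% over the PDE4D windows, against 58% over all windows. The array does not say which of these starts was in use.

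PDE4B was measured well by 1 probe set. 203708_at was above 5 on all 24 arrays and ran from 5.05 to 9.52. 211302_s_at was above 5 on 20 arrays and ran from 4.31 to 7.10, so part of its range lies near the floor. 215671_at never passed 5, and its highest level was 3.21. Over the 24 arrays 211302_s_at and 215671_at correlated with 203708_at at r = 0.745 and r = 0.691, which describes arrays that share groups and lines.

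The level of 203708_at was highest in feeder-free cells with DMSO, at 8.96 ± 0.484 (SD, n = 3 lines), with 9.52 in H1, 8.65 in H9 and 8.71 in HSF1. Next came H9 cells in unconditioned medium at 7.72 ± 0.0585 (n = 3), feeder-supported DMSO cells at 7.35 ± 0.576, H9 cells in conditioned medium at 7.19 ± 0.0967 and HSF1 cells in unconditioned medium at 7.13 ± 0.0982. The lowest groups were feeder-free AZD3965 cells at 6.08 ± 0.891, feeder-supported AZD3965 cells at 5.96 ± 0.636 and HSF1 cells in conditioned medium at 5.61 ± 0.299. In this order the ranges of neighbouring groups were separate at only 2 steps, below the first group and between the fifth and the sixth, and the other neighbours overlapped. Levels in the inhibitor and medium parts come from separate cultures and were not tested against each other.

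**Figure D1:**
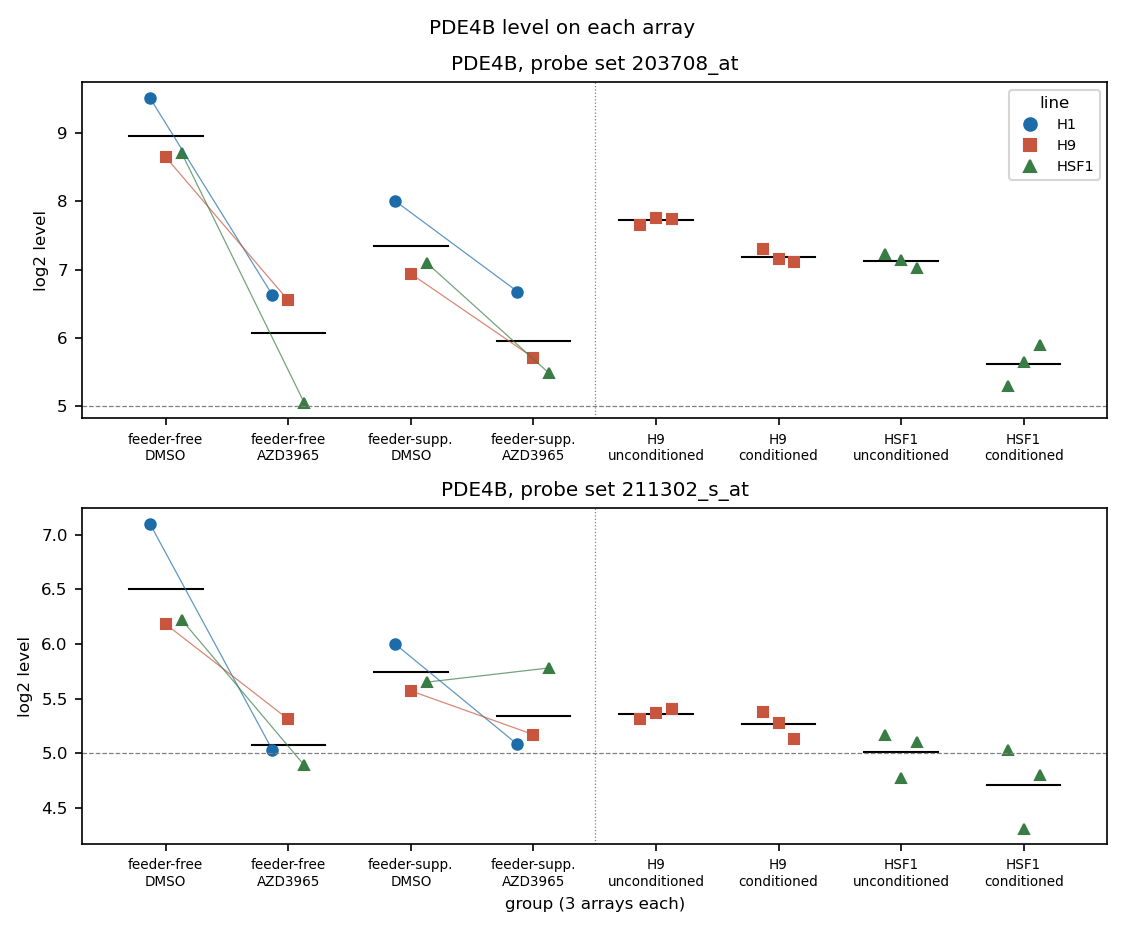
Log2 level of 2 PDE4B probe sets on each array (vertical axis) in the 8 groups (horizontal axis), with a marker per line, a bar at the group mean, thin lines joining DMSO and AZD3965 arrays of the same line and culture, and a dashed line at the filter of 5. The feeder-free DMSO arrays at 8.65 to 9.52 are the highest for 203708_at, and the HSF1 conditioned medium arrays lie at 5.30 to 5.89.

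The fall of PDE4B with AZD3965 is the reason it was chosen, so it is described without a test. In feeder-supported cells 203708_at went from 8.01 to 6.68 in H1, from 6.94 to 5.71 in H9 and from 7.10 to 5.48 in HSF1. In feeder-free cells it went from 9.52 to 6.63 in H1, from 8.65 to 6.55 in H9 and from 8.71 to 5.05 in HSF1. It was lower with the inhibitor in 6 of 6 pairs, and the treated and control ranges did not overlap in either culture system. The mean difference was -2.14 (SE 0.193), a level 4.4-fold lower, with -1.39 (SE 0.272, 2.63-fold lower) on feeders and -2.88 (SE 0.272, 7.37-fold lower) without. Over all probe sets 118 of 42032, or 0.281%, passed the threshold for this comparison, an adjusted p under 0.05 in limma, and nothing is read from that share for genes chosen by it. 211302_s_at was lower in 5 of 6 pairs, by -0.91 (SE 0.184) on average, with H1 going from 7.10 to 5.03 without feeders. The exception was feeder-supported HSF1, at 5.65 with DMSO and 5.78 with the inhibitor.

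The other family members did not share the size of this fall. In feeder-free cells 204735_at was 7.19, 7.23 and 6.68 with DMSO and 7.56, 7.88 and 7.68 with the inhibitor in H1, H9 and HSF1. On feeders it was 6.34, 5.82 and 6.30 with DMSO and 6.94, 6.61 and 6.17 with the inhibitor. It was thus higher with AZD3965 in 5 of 6 pairs, by 0.55 (SE 0.160) on average, and lower in feeder-supported HSF1. The 4 other PDE4A probe sets had mean differences between -0.02 and 0.15, and PDE4D 204491_at had -0.02 (SE 0.184), higher in 3 pairs and lower in 3.

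The fall of 203708_at was larger without feeders in every line: -2.88 against -1.33 in H1, -2.10 against -1.22 in H9 and -3.66 against -1.63 in HSF1. The signed change on feeders minus the signed change without feeders was 1.49 (SE 0.385), a smaller fall on feeders, and 1.61 without the 2 feeder-supported HSF1 arrays. For 211302_s_at it was 1.03 (SE 0.368). These differences are made from the same AZD3965 and DMSO values by which PDE4B was picked, so they too are a description with no test. Over all probe sets 0.00476% passed the threshold for this difference, and nothing is read from that share.

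With feeders, PDE4B was lower in DMSO cells and PDE4D was higher, and the PDE4A probe sets went both ways. With the DMSO and inhibitor arrays averaged, 5 of the 8 PDE4 probe sets tested differed between feeder-supported and feeder-free culture, 3 higher and 2 lower on feeders. Of all probe sets 69.1% did, so the members' count is near the background. This average takes each of the 3 lines under both treatments and counts the pairs as separate, with no term for a line's own culture difference. Where both pairs of a line deviate together, its SE and adjusted p can be too small. The median of all probe sets was -0.077 as deposited. Scaling the arrays to a common median moved it to -0.202 and quantile normalization to 0.031, and none of the 5 called members changed direction under either.

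The DMSO arrays compared here are also the controls of the inhibitor comparison by which PDE4B was picked, and the AZD3965 arrays are its treated side. For PDE4B the p-values within 1 treatment therefore describe these arrays and are no support apart from that choice. PDE4B 203708_at with DMSO was 8.01, 6.94 and 7.10 on feeders in H1, H9 and HSF1, against 9.52, 8.65 and 8.71 without. The groups did not overlap, and the pair differences of -1.51, -1.72 and -1.61 lay close together. Feeder-supported DMSO cells were lower by 1.61 on the log2 scale (difference -1.61, SE 0.272, 3.06-fold lower, adjusted p = 0.00333 in limma). Feeder-free cells of the medium part lay below the feeder-free DMSO cells, at 7.66 to 7.76 in H9 and 7.03 to 7.23 in HSF1 in unconditioned medium. That HSF1 range holds the 7.10 of feeder-supported HSF1. These are separate cultures, and the parts were not tested against each other. With AZD3965 the groups overlapped, at 6.68, 5.71 and 5.48 on feeders and 6.63, 6.55 and 5.05 without. That difference was -0.12 (SE 0.272, adjusted p = 0.708 in limma), with 2 lines higher and 1 lower, and it became 0.23 without H9. The average over both treatments was -0.87 (SE 0.193, adjusted p = 0.00256 in limma). 211302_s_at followed with -0.76 (SE 0.261, adjusted p = 0.0379 in limma) in DMSO cells and 0.26 (SE 0.261, adjusted p = 0.396 in limma) in inhibitor cells. Averaged over both it was -0.25 (adjusted p = 0.237 in limma), and -0.45 without the 2 feeder-supported HSF1 arrays (adjusted p = 0.0442 in limma). The DMSO call of this probe set was lost under 3 of 10 alternatives. Among them were the fits without H1 (adjusted p = 0.146 in limma) and without H9 (adjusted p = 0.0999 in limma). In DMSO cells 4 of 8 PDE4 probe sets passed the threshold, against 39.5% of all, and in inhibitor cells 4 of 8, against 47.2%. Both PDE4B probe sets tested are among the DMSO calls, so that count is not separate from the choice of PDE4B. Neither is among the calls in inhibitor cells.

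PDE4D had its highest levels on feeders. 204491_at was 8.73, 7.44 and 7.87 on feeders with DMSO and 8.60, 7.85 and 7.94 with AZD3965 in H1, H9 and HSF1. Without feeders it was 7.48, 6.82 and 7.08 with DMSO and 6.78, 6.80 and 7.36 with the inhibitor, and the 12 medium arrays lay between 6.45 and 6.99. Every line was higher on feeders under both treatments, although H9 on feeders with DMSO, at 7.44, lay just below feeder-free H1 at 7.48. The mean difference was 1.02 (SE 0.184, 2.02-fold higher, adjusted p = 0.000923 in limma), with 0.89 in DMSO cells and 1.15 in inhibitor cells. It was 1.18 without the 2 feeder-supported HSF1 arrays (adjusted p = 0.000764 in limma). The DMSO value lost its call under 3 of 11 alternatives. Among them were the fits without H1, at 0.70 (adjusted p = 0.114 in limma), and without H9, at 1.02 (adjusted p = 0.0875 in limma). The inhibitor value lost it without H1, at 0.81 (adjusted p = 0.0846 in limma).

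The other 5 PDE4D probe sets were too low to be tested. 211840_s_at passed 5 on 1 array, at 5.03, and 1554717_a_at, 210836_x_at, 210837_s_at and 228962_at on none, with highest levels of 3.80, 4.35, 3.80 and 3.85 in that order. 4 of these 5 were higher on feeders in 6 of 6 pairs, with mean differences of 0.52 for 210836_x_at, 0.37 for 210837_s_at, 0.68 for 211840_s_at and 0.35 for 228962_at. 1554717_a_at was higher in 4 pairs and lower in 1. The share of all low probe sets that were higher in 6 of 6 pairs was not counted. Adding the probe sets below the filter moved the median culture difference of all probe sets from -0.077 to 0.075. Low probe sets thus tended to be higher on feeders in general. These levels are close to background, where a log2 difference need not reflect a change in PDE4D RNA, and no test is given.

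**Figure D2:**
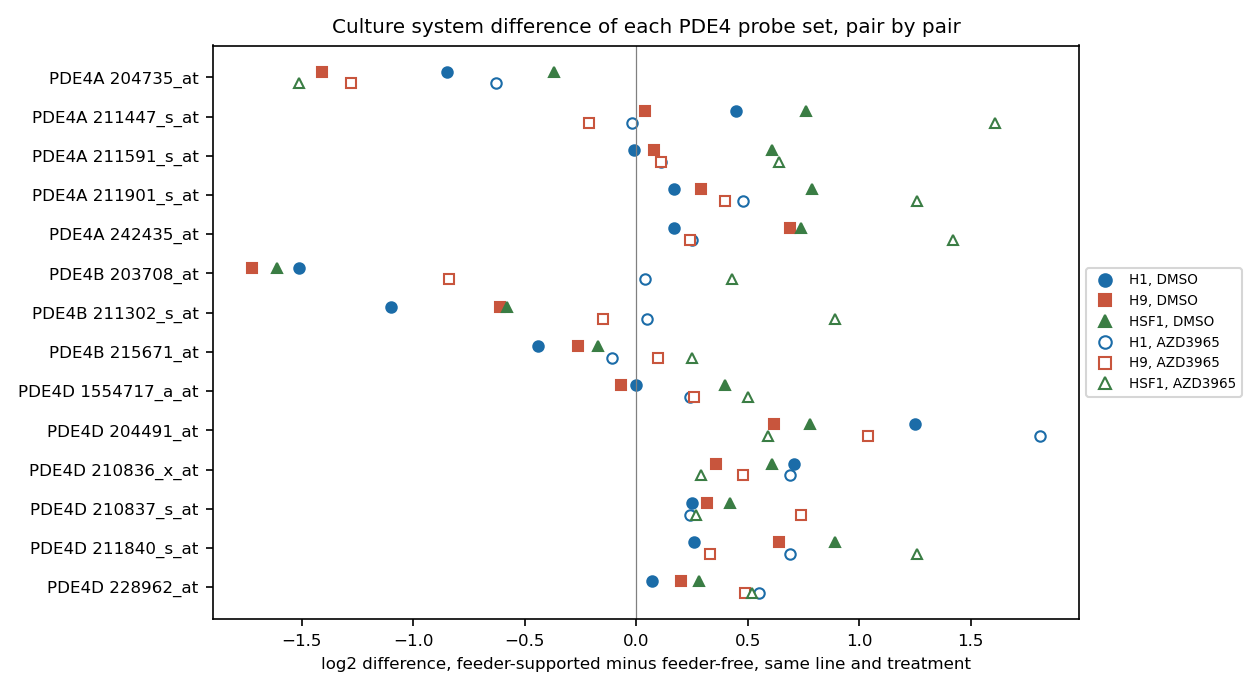
Log2 difference between feeder-supported and feeder-free culture (horizontal axis) for each of the 14 PDE4 probe sets (vertical axis), 1 point per line and treatment, filled for DMSO and open for AZD3965. PDE4D 204491_at lies right of 0 in all 6 pairs and PDE4A 204735_at left of 0 in all 6, whereas PDE4B 203708_at lies between -1.72 and -1.51 with DMSO and between -0.84 and 0.43 with AZD3965.

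PDE4A gave opposite answers from different probe sets. 204735_at, whose values are given above, was lower on feeders in 6 of 6 pairs, and the mean difference was -1.01 (SE 0.160, 2.01-fold lower, adjusted p = 0.000484 in limma). It was -0.88 in DMSO cells (adjusted p = 0.0156 in limma) and -1.14 in inhibitor cells (adjusted p = 0.00492 in limma). The DMSO call was lost without H1, at -0.89 (adjusted p = 0.0848 in limma), or without H9, at -0.61 (adjusted p = 0.132 in limma). By contrast 211901_s_at and 242435_at were higher on feeders in 6 of 6 pairs each. 211901_s_at was 6.28, 6.45 and 7.08 with DMSO and 6.54, 6.56 and 7.53 with AZD3965 on feeders, against 6.06 to 6.29 on the 6 feeder-free arrays. HSF1 on feeders was the highest under both treatments, and these are the arrays that stood apart. The difference of 211901_s_at was 0.56 (SE 0.139, adjusted p = 0.00439 in limma) and that of 242435_at was 0.59 (SE 0.165, adjusted p = 0.0085 in limma). The HSF1 pairs differed most, at 0.79 and 1.26 for 211901_s_at and 0.74 and 1.42 for 242435_at. The limit given above for the averaged p-values therefore applies to both. Without the 2 feeder-supported HSF1 arrays the mean differences fell to 0.33 (adjusted p = 0.00794 in limma) and 0.34 (adjusted p = 0.0212 in limma). In inhibitor cells 242435_at, at 0.64 (adjusted p = 0.0421 in limma), lost its call under 9 of 10 alternatives, with adjusted p from 0.0495 to 0.258 over the 10, and was 0.26 without those arrays. There 211901_s_at lost its call under 2 of 10 alternatives, 1 of them without H1, at 0.83 (adjusted p = 0.0835 in limma). The remaining 211447_s_at, at 0.44 (adjusted p = 0.0774 in limma), and 211591_s_at, at 0.26 (adjusted p = 0.121 in limma), were above 5 on only 3 of the 12 arrays each. When the 5 probe sets were averaged, PDE4A came to 0.17 (adjusted p = 0.247 in limma), so no direction is given for the gene.

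The part that MEF RNA, or cells of the other types whose marker lists averaged higher on feeders, has in these values was not tested. PDE4D and 2 PDE4A probe sets were higher on the feeder-supported arrays. There the fibroblast list averaged 7.66 to 8.56, overlapping the 6.93 to 8.08 of the feeder-free arrays of that part. The mesoderm and endoderm list averaged 6.38 to 7.91 against 5.54 to 5.99. Of 16 fibroblast markers 8 (50%) were called, 6 higher and 2 lower, against 69.1% of all probe sets. Of 8 mesoderm and endoderm markers 7 (87.5%) were called, all higher.

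**Figure D3:**
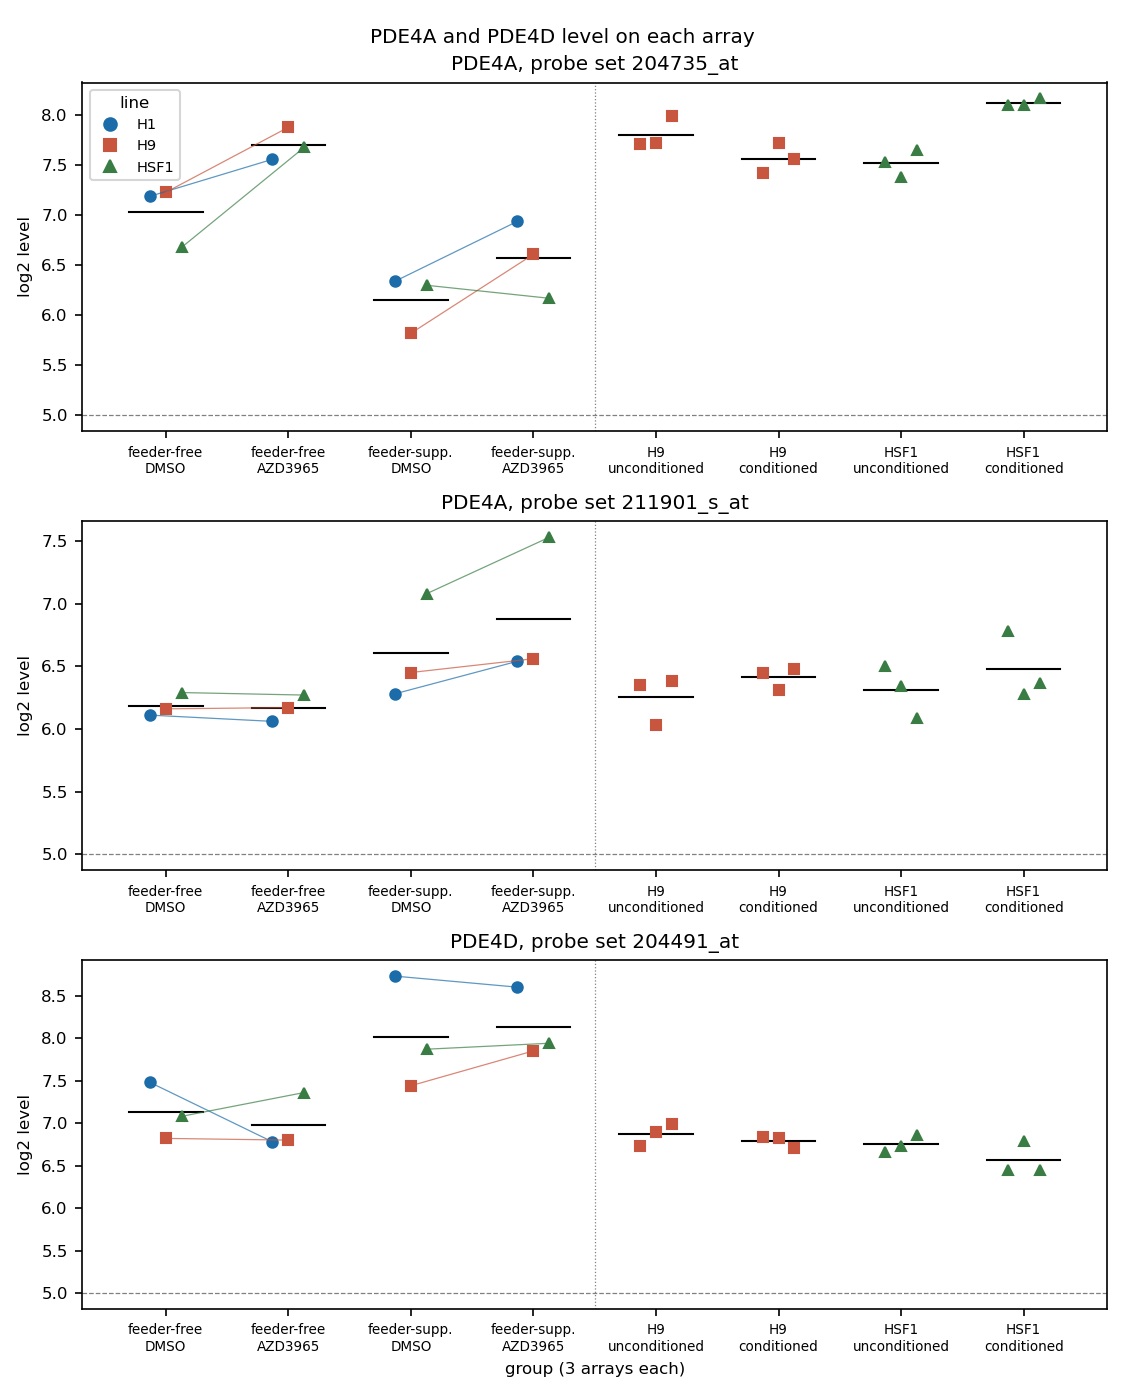
Log2 level of 2 PDE4A probe sets and 1 PDE4D probe set on each array (vertical axis) in the 8 groups (horizontal axis), drawn as for PDE4B. PDE4A 204735_at is lowest on feeders and 211901_s_at highest there, PDE4D 204491_at is highest on feeders, and PDE4A 204735_at reaches 8.10 to 8.17 in HSF1 cells in conditioned medium.

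Conditioned medium asks whether factors released by MEFs, without contact, alter the cells. It comes from arrays that the choice of PDE4B did not use. PDE4B was lower in conditioned medium in both lines. In HSF1 cells 203708_at was 7.23, 7.14 and 7.03 in unconditioned medium and 5.30, 5.65 and 5.89 in conditioned medium. The groups did not overlap, and the difference was -1.52 (SE 0.124, 2.87-fold lower, adjusted p = 2.33e-06 in limma). In H9 cells it was 7.66, 7.76 and 7.75 in unconditioned and 7.30, 7.15 and 7.11 in conditioned medium. These groups did not overlap either, and the difference was -0.54 (SE 0.124, 1.45-fold lower, adjusted p = 0.0153 in limma).

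The H9 call was lost in several fits. Its adjusted p in limma was 0.0552 without the third unconditioned array, 0.0537 without the second conditioned array and 0.0612 without the third. Of the 3 unconditioned H9 arrays, 2 had the high ACTB differences given above. Without these 2 the H9 difference was -0.47 (adjusted p = 0.271 in limma), and with the ACTB difference as a covariate it was -0.48 (adjusted p = 0.0709 in limma).

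PDE4A 204735_at went the other way in HSF1 cells. It was 7.53, 7.38 and 7.65 in unconditioned medium and 8.10, 8.10 and 8.17 in conditioned medium, without overlap. The difference was 0.60 (SE 0.103, 1.52-fold higher, adjusted p = 0.00162 in limma). In H9 cells the groups overlapped, at 7.71, 7.72 and 7.99 against 7.42, 7.72 and 7.56, a difference of -0.24 (SE 0.103, adjusted p = 0.141 in limma). Averaged with the other PDE4A probe sets, of which none tested changed in HSF1, the HSF1 value was 0.21 (adjusted p = 0.0745 in limma).

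In H9 cells 1 of 7 PDE4 probe sets passed the threshold, against 10.1% of all probe sets, and in HSF1 cells 2 of 7, against 11.4%. PDE4B 211302_s_at, near the floor, had -0.10 (SE 0.160) in H9 and -0.30 (SE 0.160) in HSF1, with adjusted p = 0.703 and 0.269 in limma. PDE4D 204491_at had -0.08 (SE 0.108) and -0.19 (SE 0.108), with adjusted p = 0.628 and 0.315 in limma. The 3 other PDE4A probe sets tested lay between -0.05 and 0.17 in both lines. The fibroblast list overlapped between conditioned and unconditioned arrays, at 6.89 to 7.14 and 6.98 to 7.15. Other marker lists did not. The mesoderm and endoderm list was higher in conditioned medium without overlap in both lines, at 5.79 to 5.87 against 5.50 to 5.60 in H9 and 5.83 to 5.96 against 5.58 to 5.63 in HSF1. The neuroectoderm list was higher without overlap in HSF1, at 5.64 to 5.68 against 5.27 to 5.43, and the pluripotency list in H9, at 12.52 to 12.57 against 12.29 to 12.42. Their part in the PDE4 values was not tested.

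The 2 lines differed in these responses. For PDE4B 203708_at the HSF1 difference minus the H9 difference was -0.98 (SE 0.175, adjusted p = 0.00838 in limma), a larger fall in HSF1. For PDE4A 204735_at it was 0.84 (SE 0.145, adjusted p = 0.00736 in limma), and 0.15 (adjusted p = 0.468 in limma) when the gene's probe sets were averaged. For PDE4B that average was -0.32 (adjusted p = 0.132 in limma). Without averaging, 2 of 7 PDE4 probe sets passed, against 4.56% of all. Without the 2 H9 arrays of high ACTB difference they were -1.05 (adjusted p = 0.027 in limma) and 0.75 (adjusted p = 0.0279 in limma). In unconditioned medium HSF1 cells already had less PDE4B than H9 cells, HSF1 minus H9 being -0.59 (SE 0.124, adjusted p = 0.00523 in limma), 1 of 7 PDE4 probe sets against 18.7% of all. That call was lost without the 2 H9 arrays, at -0.52 (adjusted p = 0.117 in limma). The p-values of the medium part measure the spread between replicates of a line. Those of the inhibitor part measure the spread left once group and line means are taken out, so a steady difference between lines does not enter.

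**Figure D4:**
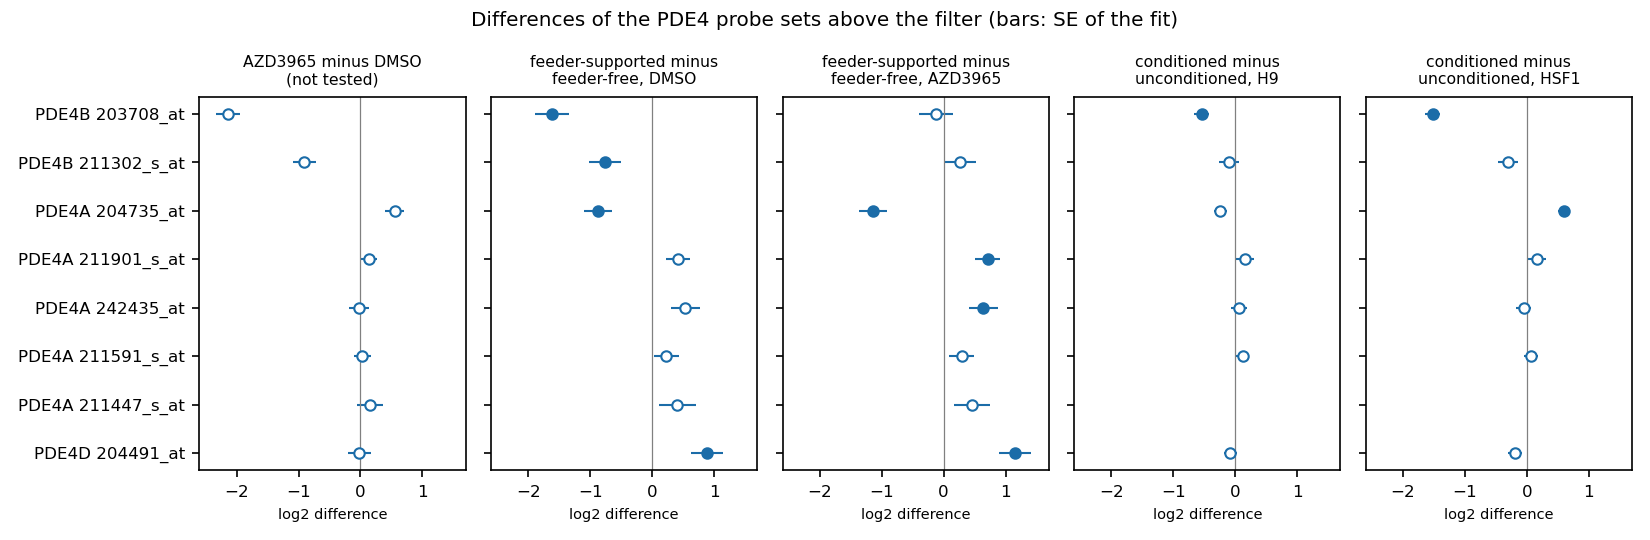
Log2 difference of the PDE4 probe sets above the filter (horizontal axes, bars give the SE of the fit, vertical axis lists the probe sets) in 5 comparisons, with filled points where the adjusted p was under 0.05. The AZD3965 panel was not tested, and the culture panels use the arrays by which PDE4B was picked. PDE4B 203708_at is at -1.52 and PDE4A 204735_at at 0.60 in HSF1 conditioned medium, and the remaining members there are open points.

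Genes that make, carry and read the cAMP signal were followed in 6 lists of 83 genes, of which 76 had a probe set of their own and 73 were tested in the inhibitor part. For AZD3965, none of the 73 passed the threshold in limma, the smallest adjusted p being 0.223, and 5 (6.85%) had an unadjusted p under 0.05. Over all 17218 genes, with 1 probe set each, 0.412% passed and 8.17% had an unadjusted p under 0.05, so the lists are near the background. Without the 2 feeder-supported HSF1 arrays 5 of the 73 (6.85%) passed, against 6% of all genes, again near the background. These 5, named after their values were seen, were ADCY7 at 1.01, GNAL at 0.37, GNAS at -0.24, PRKAR2B at -0.43 and CREBBP at -0.44. With feeders, 47 of 73 (64.4%) differed, 25 higher and 22 lower, against 70.8% of all genes.

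Among the genes that a CRE is known to drive, 9 of 15 tested were higher on feeders and none was lower, or 60% called against 70.8% of all genes. Of all genes 29.4% were higher and 41.4% lower, and the list median was 0.44 against -0.20. Scaled to a common median, or without the 2 feeder-supported HSF1 arrays, 8 were higher and 1 lower. NR4A2, an orphan nuclear receptor, had 3.90 (SE 0.179), EGR1, an immediate early zinc finger factor, had 2.48 (SE 0.206), CITED2, a partner of the coactivator CBP, had 2.45 (SE 0.198), and the growth factor BDNF 1.72 (SE 0.260). These genes also answer to signals other than cAMP, and their share in the cells whose marker lists averaged higher on feeders was not tested. Low probe sets tended to be higher on feeders in general, as given above for PDE4D. Some members of this list were low, with NR4A3 at 4.96, FOSB at 5.75 and CRH at 5.92 in feeder-free DMSO cells. The part of the log2 level in the direction of the list was not tested. EGR1 was not high on feeders alone. Its mean level was 10.45 in feeder-supported and 8.18 in feeder-free DMSO cells, but 10.10 in H9 and 9.61 in HSF1 feeder-free cells in unconditioned medium. NR4A2, CITED2 and BDNF stayed near their feeder-free DMSO levels there.

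Upstream and downstream of cAMP the members of a list went both ways on feeders. Among the adenylyl cyclases, ADCY1, a calmodulin-stimulated cyclase, had -1.69 (SE 0.186) and ADCY5 0.90 (SE 0.139), with 3 of 9 higher and 3 lower. Among the effectors, the protein kinase A inhibitors PKIB and PKIA had -1.54 (SE 0.256) and -1.35 (SE 0.235), and the catalytic subunit PRKACB -1.26 (SE 0.241), with 4 of 18 higher and 7 lower. Of the other cAMP phosphodiesterases, PDE7A had -1.02 (SE 0.190), PDE3A -0.96 (SE 0.145) and PDE3B -0.77 (SE 0.148), and PDE1B 0.64 (SE 0.151), with 4 of 11 higher and 3 lower. Of the anchors and partners that place PDE4 enzymes in the cell, ARRB1, a beta-arrestin that carries PDE4D to activated receptors, had 1.19 (SE 0.139) and the anchoring protein AKAP11 -1.09 (SE 0.220), with 4 of 13 higher and 6 lower. The G protein alpha subunits had 1 of 7 higher, GNAS at 0.29 (SE 0.103), and 3 lower. These counts move with the scaling: under a common median 0 of the 7 alpha subunits were higher, and under quantile normalization 2 were higher and 0 lower, and 8 effectors were higher and 5 lower. Without the 2 feeder-supported HSF1 arrays 1 cyclase was higher and 2 lower, and 0 alpha subunits were higher and 4 lower, with GNAS at 0.09 (adjusted p = 0.178 in limma).

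In conditioned medium 16 of 72 list genes (22.2%) differed in H9 cells, 5 higher and 11 lower, and 14 of 72 (19.4%) in HSF1 cells, 8 higher and 6 lower. Of all genes 12.1% differed in H9 and 14.6% in HSF1. Without the 2 H9 arrays of high ACTB difference 3 of 72 (4.17%) differed in H9, against 2.64% of all genes, namely EGR1 at -1.83, ADCY1 at -0.55 and ADCY6 at -0.41. EGR1 was lower in both lines, with -2.07 (SE 0.114) in H9 and -1.04 (SE 0.114) in HSF1. PKIA was lower in both too, with -0.39 and -0.46 (SE 0.0691 each). ADCY1 had -0.55 (SE 0.0789) in H9, and CITED2 was higher in HSF1 by 0.83 (SE 0.109). Of the other cAMP phosphodiesterases, PDE10A had -0.58 (SE 0.169) and PDE1C 0.45 (SE 0.114) in H9, and none of the 11 passed in HSF1. The response of PDE10A also differed between the lines, HSF1 minus H9 being 1.03 (SE 0.239, adjusted p = 0.0281 in limma). Without the 2 H9 arrays PDE10A was at -0.15 in H9 and its line difference at 0.61 (adjusted p = 0.202 in limma), and the H9 calls of PKIA and PDE1C were lost too.

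The genes whose level ran most like PDE4B 203708_at over the 24 arrays, among 17269 genes above the filter, were PPP1R17 (r = 0.827), CYLD (0.826), MTHFD2L (0.797), SP110 (0.783), TMEM167A (0.779) and ERBB2 (0.775). The most opposite were KCNJ4 (-0.841), STRA6 (-0.812), SMIM24 (-0.800) and ZYG11A (-0.781). Each r is a description over arrays that share lines, groups and treatments. Within the family, PDE4A 204735_at had r = -0.168 and PDE4D 204491_at 0.039 with it. PPP1R17, an inhibitor of protein phosphatases, had differences of -1.03 with AZD3965, -0.53 with conditioned medium in H9 and -0.82 in HSF1, the same direction as PDE4B in each, as the choice by likeness favours.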

How the data were processed

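RNA was labelled and hybridised to Affymetrix U133 Plus 2.0 arrays. The authors deposited log2 levels of 54675 probe sets made with RMA, per the submitters' processing notes. Its version is not given in the sources used here, nor is it stated that the arrays were processed as 1 batch. RMA normally brings arrays to a common distribution, but the deposited arrays do not share one: their medians ran from 6.09 to 6.35 and their interquartile ranges from 2.45 to 3.30. Precision is limited by how many arrays there are.

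Gene names of probe sets come from GEO's platform annotation (41091 name 1 gene, 1801 several, 11721 none, after 62 control probe sets were left out). Those above 5 on at least 3 of a part's 12 arrays were fitted in R 4.3.3 with limma 3.58.1 (lmFit, eBayes with an intensity trend), with Benjamini-Hochberg adjustment over all probe sets tested and a threshold of 0.05. The fits were checked on simulated data with errors independent between arrays. That check does not cover arrays of a line that deviate together, such as the feeder-supported HSF1 arrays. The line was a block in the inhibitor part, where a number stands for the same cell line, and deviations of same-line arrays from their group means correlated at -0.041 to 0.903. The medium part had no block. All 14 PDE4 probe sets are named, with up to 4 genes per list and comparison by smallest adjusted p, and the 6 most alike and 4 most opposite genes. A list gene is represented by its probe set of highest mean. The members and lists were chosen with earlier results of these data known.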

Additional observations from a re-analysis of the deposited data

Results flagged for a closer look

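The response to conditioned medium differed between the 2 lines for 2 PDE4 probe sets, by a test of the difference itself in limma. For PDE4B 203708_at the HSF1 difference minus the H9 difference was -0.98 (SE 0.175, adjusted p = 0.00838), and all 3 conditioned arrays lay below all 3 unconditioned arrays in each line. For PDE4A 204735_at it was 0.84 (SE 0.145, adjusted p = 0.00736), with the groups separate in HSF1 and overlapping in H9. When a gene's probe sets were averaged both calls were lost, at -0.32 (adjusted p = 0.132) for PDE4B and 0.15 (adjusted p = 0.468) for PDE4A. The medium part holds 2 lines, so these values compare the lines and not kinds of line.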

How the results depend on the processing

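PDE4B 203708_at kept its direction and its side of the threshold under all 12 alternatives for the average culture difference (-1.01 to -0.41), all 12 for that in DMSO cells (-1.91 to -0.89) and all 21 for conditioned medium in HSF1 (-1.66 to -0.59). The DMSO difference uses arrays by which PDE4B was picked, so its stability is no separate support.

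Averaging a gene's probe sets changed most: PDE4A reversed to 0.17 for the culture difference, 0.14 in DMSO cells and 0.19 in inhibitor cells, and PDE4B reversed to 0.07 in inhibitor cells. It also moved the PDE4B inhibitor effect to -1.08 and took the difference between the lines' medium responses to -0.32 for PDE4B and 0.15 for PDE4A, neither called. This average includes probe sets below the filter. Leaving out a line, the PDE4B culture difference in inhibitor cells ran from -0.40 to 0.23. With a replicate block of line by culture system the difference between the PDE4B falls was 1.49 with a smaller SE, and 1 PDE4 probe set passed instead of 0, from which nothing is read because PDE4B was picked on these values.

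The H9 medium difference was -0.54 with the replicate block, -0.48 with the ACTB covariate and -0.47 without the 2 H9 arrays, none called, and -0.59 to -0.50 when 1 array was left out. No PDE4 probe set was called in limma in those 3 fits or in 3 of the 12 that left out 1 array, while 1 or 2 had an unadjusted p under 0.05, and the other 9 called 1. The replicate numbers were not taken to pair the medium arrays: same-number correlations between the groups compared were -0.318 to 0.111 across media within a line and -0.120 to 0.148 between lines in unconditioned medium. Between lines in conditioned medium they were 0.223 to 0.353, all over 0.1. The block ended the H9 call and changed no other PDE4 call. The line difference in unconditioned medium was -0.52 without the 2 H9 arrays.

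List counts, compared after the data were seen, moved: 5 instead of 0 for the inhibitor without the 2 feeder-supported HSF1 arrays, and 3 instead of 16 for H9 medium without the 2 H9 arrays.

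Counts of called PDE4 probe sets moved with the setting, as did the shares of all probe sets. With no filter 14 were tested. For the culture difference 9 were called, against 63.1% of all, and in inhibitor cells 7, against 40.1%. With no line block 2 of 8 were called in DMSO cells, against 12.5%, and 2 of 8 in inhibitor cells, against 22.4%. Without 1 line 1 to 4 of 8 were called in DMSO cells, against 5.31% to 32.7%. In inhibitor cells 1 to 3 of 8 were, against 7.1% to 34.9%. For the line difference the count was 2 of 7 under array weights, against 24.8% of all. It was 1 to 2 of 7 without 1 array, against 10% to 28.3%. The cause of these shifts was not tested. Levels under 5 are close to background and limit 6 of the 14 probe sets.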
